A study of Mus musculus with 6 samples.

Results

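The insulin-like growth factor (IGF) system of the brain was examined here through 10 genes: the ligands Igf1 and Igf2, the receptors Igf1r and Igf2r, and the binding protein genes Igfbp2 to Igfbp7. Every probe set with exactly 1 of these symbols was taken, which gave 28 of the 45101 probe sets on the array, for 10 of the 18193 genes with such a probe set. The family was chosen by gene name at a time when diet differences measured in these same arrays were already known. Its diet differences are therefore given as a description, with standard errors but without p-values. Where a member lay past a threshold of the fit over all probe sets, that is stated as part of the description and is no independent test of the member.

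The tissue was medial prefrontal cortex from 6 males, 8 to 10 weeks old, of 129S1/SvImJ, an inbred mouse strain known for poor fear extinction. Every mouse had been trained in extinction, where a cue that has come to evoke fear is shown on its own until the fear fades, and both hemispheres were taken 2 h afterwards. The groups were a control diet (mice 1, 5 and 9) and a diet labelled ZnR and described as a zinc diet (mice 3, 7 and 11), with 1 Affymetrix Mouse430_2 array per mouse. The composition and length of the ZnR diet are not given in the sources used here. No mouse without extinction training and no female was in the series, so each value below is a contrast of diets among trained males.

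IGF1 and IGF2 are small secreted proteins related to insulin. Both act through the receptor tyrosine kinase IGF1R, which signals through insulin receptor substrates to the PI3K, AKT and mTOR branch, while IGF2R, the cation-independent mannose 6-phosphate receptor, takes up IGF2 and delivers it to lysosomes. The IGFBP proteins hold the ligands outside cells and set how much reaches the receptors, and IGFBP6 is known for binding IGF2 more tightly than IGF1. In the adult brain, IGF1 is made by some neurons and by microglia, and IGF2 mainly by the leptomeninges and the choroid plexus, which line and surround the brain.

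Of the family, the binding protein gene Igfbp6 in ZnR mice was 2.34-fold lower than in control mice, and Igf1 was 1.56-fold lower. The mean of Igf2 was 1.84-fold higher, but the diets overlapped. The receptor genes Igf1r and Igf2r and the binding protein genes Igfbp3 and Igfbp4 differed by at most 0.13 log2 units on the probe set that represents each gene, and Igfbp2, Igfbp5 and Igfbp7 lay between 0.20 and 0.37 higher on average. A gene is represented here by its brightest probe set among those above a log2 value of 4 on at least 3 arrays, and all levels are log2 expression values as deposited.

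Over the whole table the median level of the arrays lay between 4.45 and 4.52. The probe sets for 18S ribosomal RNA averaged 9.09 in control mouse 1 and 8.44 in ZnR mouse 3 and from 10.9 to 12.4 in the other 4 mice, so some values are also given between these low-18S mice and among the remaining 4. Cortical excitatory neuron genes had a mean over 6 markers of 9.04 to 9.16 in controls and lower at 8.04 to 8.24 in ZnR mice. Genes of striatal medium spiny neurons had a mean over 8 markers of 10.6 to 11.1 in controls and 11.3 to 11.5 in ZnR mice, and ependyma genes a mean over 8 markers of 4.19 to 4.98 and 5.69 to 5.86. Levels of different lists are not comparable on the array, so these markers do not settle how much tissue beside cortex was dissected. In bulk tissue fewer cells of a type and less RNA per cell cannot be told apart, and the part of such shifts in the IGF values below was not tested.

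All 10 genes matched the RefSeq promoter table of build GRCm38.p6, in 14 windows. The 250 bases upstream of the start site are shown for the genes with the largest differences, so that the regulatory sequence stands beside the values. Igf2 has 4 windows, and the one with the most matches is printed. Each is written on the gene's own strand. Capitals mark the core of the metal response element, the DNA motif of the zinc-sensing factor MTF1, searched as TGCACNC and TGCGCNC on both strands. The Igfbp6 window is chr15:102143936-102144185 on the plus strand, the Igf1 window chr10:87860861-87861110 on the plus strand and the Igf2 window chr7:142657497-142657746 on the minus strand.
Igfbp6: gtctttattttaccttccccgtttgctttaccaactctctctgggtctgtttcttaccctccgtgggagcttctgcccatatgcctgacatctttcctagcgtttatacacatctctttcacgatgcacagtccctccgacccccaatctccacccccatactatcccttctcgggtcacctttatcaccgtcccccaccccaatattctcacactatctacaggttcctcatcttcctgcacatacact
Igf1: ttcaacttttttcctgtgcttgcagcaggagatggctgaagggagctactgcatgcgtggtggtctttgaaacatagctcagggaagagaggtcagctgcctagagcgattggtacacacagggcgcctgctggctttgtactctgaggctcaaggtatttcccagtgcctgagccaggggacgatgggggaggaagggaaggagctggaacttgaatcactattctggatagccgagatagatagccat
Igf2: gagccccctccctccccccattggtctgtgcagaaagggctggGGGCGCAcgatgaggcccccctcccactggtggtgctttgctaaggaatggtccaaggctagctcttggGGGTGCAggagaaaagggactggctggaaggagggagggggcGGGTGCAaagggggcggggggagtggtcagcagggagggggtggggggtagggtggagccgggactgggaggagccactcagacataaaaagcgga

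The Igfbp6 and Igf1 windows held neither form of the core. The Igf2 window printed held 3 matches, all on the opposite strand, starting 207, 138 and 96 bases before the start site. Of the 14 member windows, 6 held a match, and 21.4% of the 32851 windows of the same length did. The 6 with a match were 66.0 to 77.6% G and C, beside a median of 52.4% over all windows, so these shares are not like for like. Of the 4 Igf2 windows, 2 held a match. The window with the most matches, 4, was that of Igfbp3, whose difference between diets was -0.02. The cAMP response element TGACGTCA was in no member window and in 1.55% of all windows. A match of these letters is a description of the sequence and not evidence of binding.

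**Figure D1:**
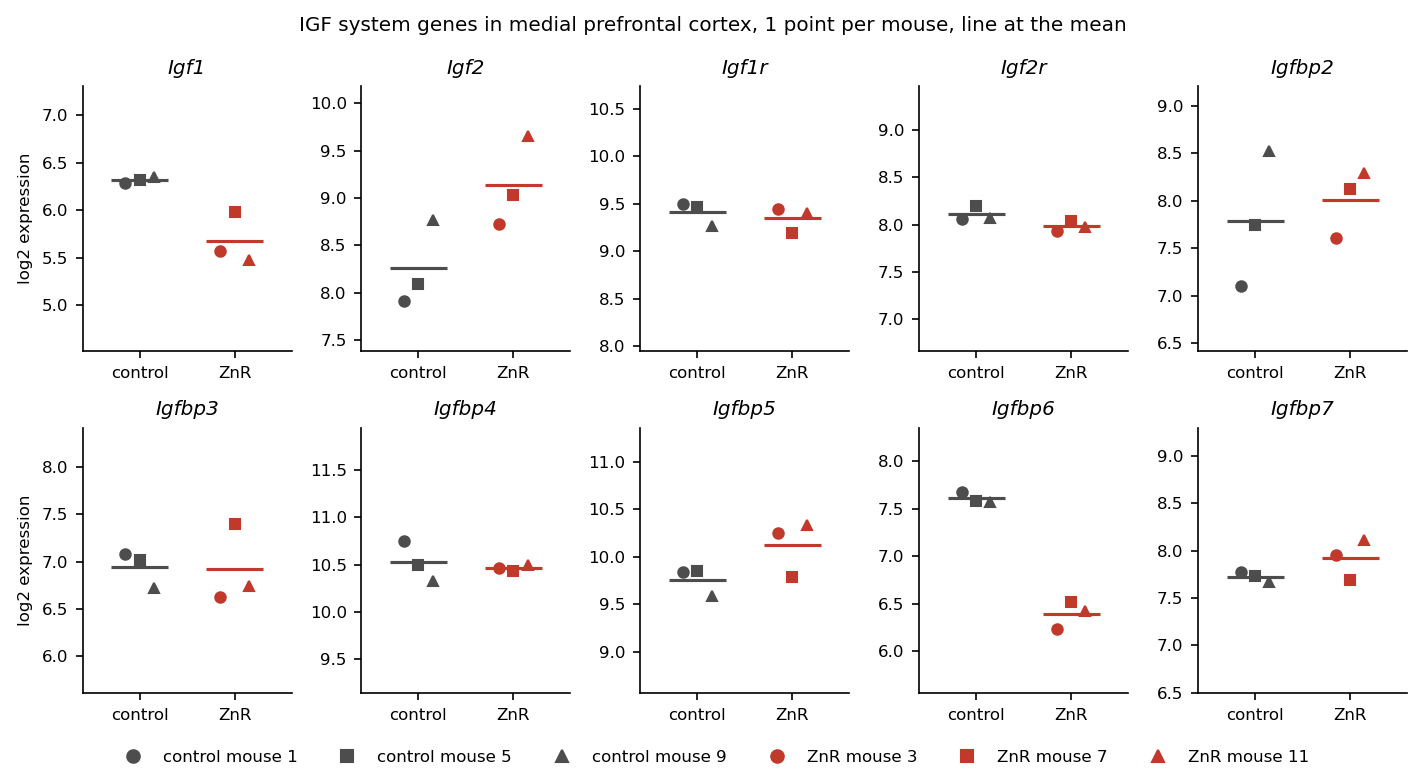
Log2 expression of the 10 IGF system genes in each mouse (y axis; each panel spans 2.8 log2 units) by diet (x axis), on the probe set that represents the gene. Points are single mice, lines are means over 3 mice, and equal shapes do not pair mice. Igfbp6 is below 6.6 in all ZnR mice and above 7.5 in all controls, Igf1 is separate too, and Igf2 overlaps by ZnR mouse 3 and control mouse 9.

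Among the ligands, Igf1 was measured by 2 probe sets above the level filter, and both were lower in every ZnR mouse. Probe set 1437401_at read 6.29, 6.31 and 6.35 in control mice 1, 5 and 9 and 5.57, 5.98 and 5.47 in ZnR mice 3, 7 and 11. The 3 controls were nearly equal (SD 0.03, n = 3), the ZnR mice spread more (SD 0.27, n = 3), and ZnR mouse 7 lay closest to the controls. The difference was -0.64 ± 0.14 log2 units (moderated SE), which came to -0.72 between the low-18S mice and -0.61 among the remaining 4.

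The second Igf1 probe set, 1434413_at, gave the same picture. It read 5.61, 5.64 and 5.68 in controls and 4.996, 5.285 and 5.053 in ZnR mice 3, 7 and 11, a difference of -0.53 ± 0.10. ZnR mouse 7 was again the highest of its diet. The other 2 probe sets of Igf1 were below the level filter and also had lower means in ZnR mice (-0.13 and -0.36), where values are compressed near the floor. Neither probe set above the filter passed the threshold of the fit.

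Markers of microglia and of interneurons as a list did not separate the diets. Microglia genes had a mean over 8 markers of 7.53 to 7.63 in controls and 7.44 to 7.62 in ZnR mice, overlapping ranges, with Csf1r, the receptor for a microglial survival factor, the brightest. Interneuron genes had a mean over 8 markers of 10.1 to 10.3 in controls and 10.1 to 10.2 in ZnR mice. Within that list the peptide gene Vip, named after its values were seen, fell from a mean of 9.79 to 8.79 (limma adjusted p = 0.0208), while 7 of the 8 did not pass. The list had no common direction, with 4 higher and 4 lower means, and 3 of each at an unadjusted limma p under 0.05. Slc32a1, the vesicular transporter gene for GABA (0.56), Gad2, which encodes a GABA-making enzyme (0.39), and Lhx6, a transcription factor gene (0.36), were higher in every ZnR mouse than in any control. On the lower side beside Vip, Npy (-0.44) was lower in every ZnR mouse than in any control, and Pvalb (-0.70) overlapped. All of these were likewise named after their values were seen. The part of these cells in the Igf1 values was not tested.

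Igf2 rested on a single probe set above the filter, 1448152_at. It read 7.91, 8.09 and 8.77 in control mice 1, 5 and 9 and 8.73, 9.03 and 9.65 in ZnR mice 3, 7 and 11. The diets overlapped by a narrow margin, since ZnR mouse 3 lay just under control mouse 9, and ZnR mouse 11 was the highest of all. The difference was 0.88 ± 0.29 log2 units, which came to 0.81 between the low-18S mice and 0.91 among the remaining 4, and it did not pass the threshold. Without ZnR mouse 11 it was 0.62, and without control mouse 9 it was 1.14. The other Igf2 probe set lay near the floor at 3.002 to 3.221 in all mice.

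Genes of the leptomeninges had the same order of mice within each diet as Igf2. The lists of mural cells and astrocytes had this order as well, and so did the mean of the 18S probe sets. The mean over 8 leptomeningeal markers was 5.93, 6.09 and 6.61 in control mice 1, 5 and 9 and 6.02, 6.67 and 7.05 in ZnR mice 3, 7 and 11. The mean difference of this list was 0.37, all 8 markers had higher means in ZnR mice, and none of them passed the threshold (1 at an unadjusted limma p under 0.05). Ptgds, an enzyme of prostaglandin D2 synthesis, was its brightest marker, and Lum, Col1a1, Slc6a13 and Slc22a6 were not above the filter. In ZnR mouse 3 the leptomeningeal mean lay below that of control mouse 5, whereas Igf2 lay above it.

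The list means of choroid plexus and ependyma markers were higher in every ZnR mouse than in any control, and 1 of 4 and 3 of 8 markers rose past the threshold. Only 4 choroid plexus markers were measured, with a mean of 4.26 to 4.97 in controls and 5.40 to 5.73 in ZnR mice, and the defining genes Folr1, Kcne2, Aqp1, Slc4a5, Sostdc1 and Kcnj13 were not above the filter. Ttr, the transthyretin gene that dominates choroid plexus RNA, averaged 3.77 in controls and 4.43 in ZnR mice, close to the floor and with overlap. The chloride channel gene Clic6 was the brightest marker of the choroid list. The part of lining tissue in the Igf2 values was not tested.

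**Figure D2:**
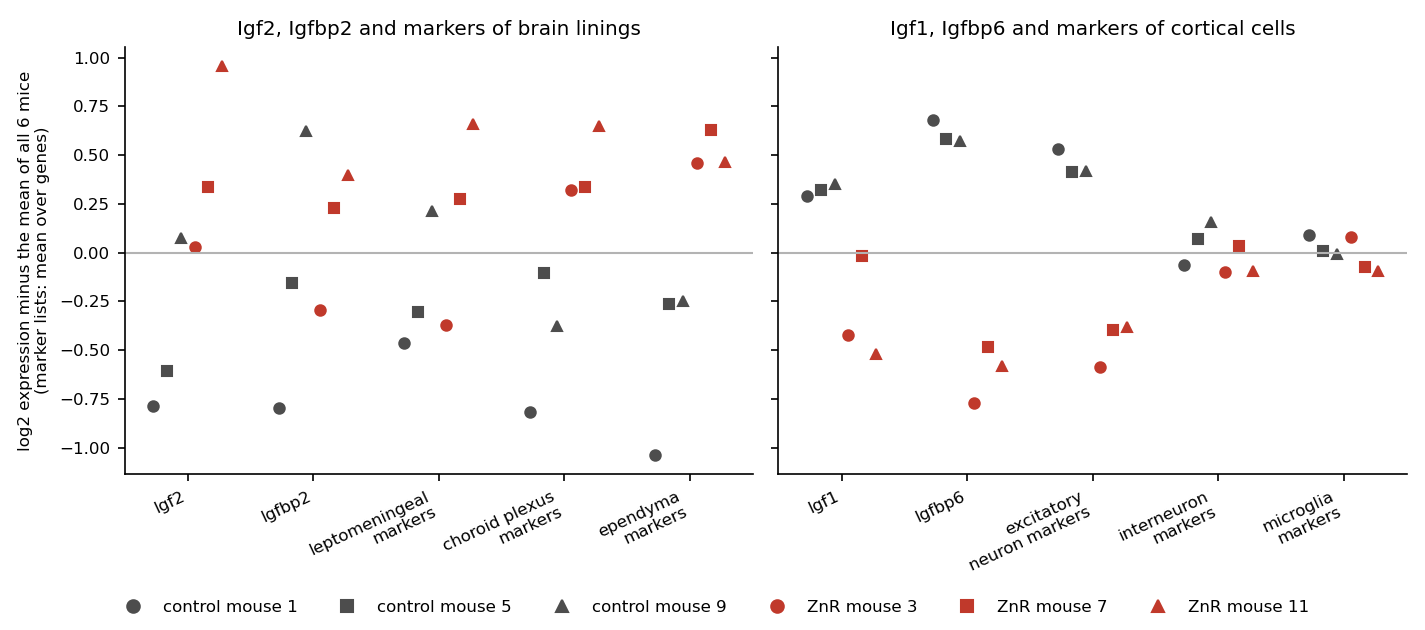
Log2 expression of each mouse relative to the mean of all 6 mice (y axis) for Igf2 and Igfbp2 beside marker lists of the brain linings (left) and for Igf1 and Igfbp6 beside marker lists of cortical cells (right); list values are means over genes. Points are single mice, grey for control and red for ZnR, and equal shapes do not pair mice. In both diets Igf2, Igfbp2 and the leptomeningeal markers place the mice in the same order, which is also that of the 18S probe sets. Igfbp6 and the excitatory neuron markers are both separate between diets.

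The receptor genes differed little between diets. Igf1r, the signalling receptor, was read by 5 probe sets, all above the filter. Its brightest, 1452982_at, read 9.49, 9.46 and 9.27 in controls and 9.45, 9.19 and 9.40 in ZnR mice 3, 7 and 11, a difference of -0.06 ± 0.11. The values overlapped. Of the other 4, 3 differed by -0.02 to 0.0049, and 1452108_at, a dim probe set at 4.04 to 4.69, differed by -0.31 ± 0.12 with no overlap between diets.

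Igf2r, the clearance receptor for IGF2, showed a small difference on one of its probe sets. Probe set 1424112_at read 8.06, 8.20 and 8.07 in controls and 7.93, 8.04 and 7.98 in ZnR mice, a difference of -0.13 ± 0.08. The diets were separate by a narrow margin. The second, 1424111_at, overlapped with a difference of -0.02 ± 0.11.

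Igfbp6 had the largest difference of the 10 genes. Its only probe set, 1417933_at, read 7.68, 7.58 and 7.57 in control mice 1, 5 and 9 and 6.23, 6.51 and 6.42 in ZnR mice 3, 7 and 11. The lowest control lay more than 1 log2 unit above the highest ZnR mouse. The difference was -1.22 ± 0.10, which came to -1.45 between the low-18S mice and -1.11 among the remaining 4, and it placed Igfbp6 at rank 20 among 11749 genes ordered from the most negative difference. With a single probe set, no second reading of the gene was at hand on this array.

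In the limma fit over all 25381 probe sets tested, Igfbp6 was the member whose difference lay past an adjusted p of 0.05, which describes the values that were known when the family was chosen. That is 1 of 24 member probe sets above the filter on the lower side, where 1.01% of all probe sets were called lower. None was called higher, against 0.461% of all. At an unadjusted limma p under 0.05 there were 4 lower and 2 higher of the 24, beside 7.9% lower and 9.06% higher of all probe sets. Diets did not overlap for 5 of the 24, all lower in ZnR mice, where 10.6% of all probe sets were separate and lower and 13.1% separate and higher. These were 2 of Igf1 and 1 each of Igf1r, Igf2r and Igfbp6. The median difference of the 24 was -0.02, beside 0.02 over all probe sets tested, and nothing is read from these counts. The other 4 member probe sets, 2 of Igf1 and 1 each of Igf2 and Igfbp7, were below the filter and were not tested.

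The size of the Igfbp6 difference changed little when mice were left out, while its place past the threshold depended on 1 control mouse. With each mouse left out in turn the difference stayed between -1.29 and -1.14. It was past the threshold in 5 of these 6 fits and not without control mouse 5, a fit in which 1 probe set of the whole table passed. Leaving out the low-18S pair, an alternative added once the data had been seen, gave -1.11 and no call, again in a fit with 1 probe set past the threshold. The calls among marker and pathway genes rest on the same mice. None of those genes passed in either fit, since the probe set that did pass belonged to none of the lists.

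Markers of excitatory neurons moved with Igfbp6. All 6 measured markers had lower means in ZnR mice, and 5 of them fell past the threshold, with a mean difference of -0.91. Neurod6, a transcription factor gene of these neurons, was the brightest marker. Control mouse 1 was the highest and ZnR mouse 3 the lowest of the 6 both for this list and for Igfbp6. These are the low-18S mice. The remaining mice of each diet were in opposite order for the list and for Igfbp6. The part of excitatory neurons in the Igfbp6 difference was not tested.

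Igfbp2, a binding protein gene known from the leptomeninges and choroid plexus, varied more within a diet than between diets. Its probe set 1454159_a_at read 7.10, 7.74 and 8.52 in control mice 1, 5 and 9 and 7.61, 8.13 and 8.30 in ZnR mice 3, 7 and 11. The controls spanned both the lowest and the highest value. The difference was 0.22 ± 0.34, was -0.12 without control mouse 1 and 0.59 without control mouse 9. The mice had the same order within each diet as in Igf2 and in the 18S probe sets.

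Igfbp5, whose product binds IGFs in the extracellular matrix, had probe sets that disagreed. The brighter, 1452114_s_at, read 9.84, 9.85 and 9.58 in controls and 10.2, 9.79 and 10.3 in ZnR mice 3, 7 and 11, a difference of 0.37 ± 0.16. ZnR mouse 7 lay among the controls. The dimmer, 1422313_a_at, read between 4.21 and 4.80 and differed by -0.17 ± 0.15. The direction of Igfbp5 therefore depends on the probe set.

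Igfbp7, a binding protein gene with low affinity for IGFs that is known from blood vessels, read 7.77, 7.73 and 7.67 in controls and 7.95, 7.70 and 8.12 in ZnR mice 3, 7 and 11 on probe set 1423584_at. The difference was 0.20 ± 0.12, and ZnR mouse 7 was again among the controls. Endothelial markers also had ZnR mice 3 and 11 above the controls and ZnR mouse 7 not, with a mean over 8 genes of 5.61, 5.71 and 5.74 in controls and 5.84, 5.60 and 5.90 in ZnR mice 3, 7 and 11. The transporter gene Slco1a4 was the brightest of them and overlapped between diets. This pattern was not particular to vessels. Oligodendrocyte markers had it too, at 10.607, 10.517 and 10.425 in controls and 10.901, 10.477 and 11.22 in ZnR mice 3, 7 and 11. Their mean difference was 0.35, beside 0.09 for the endothelial list. The second Igfbp7 probe set above the filter differed by 0.07 ± 0.09. The part of vessels or of oligodendrocytes in the Igfbp7 values was not tested.

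Igfbp3, which encodes the main carrier of IGFs in blood, showed no steady direction. Probe set 1423062_at read 7.08, 7.02 and 6.73 in controls and 6.63, 7.39 and 6.74 in ZnR mice 3, 7 and 11. ZnR mice held both the lowest and the highest value. The difference was -0.02 ± 0.21, with opposite signs of -0.46 between the low-18S mice and 0.19 among the remaining 4. The other probe set differed by 0.10 ± 0.11.

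Igfbp4, which encodes a binding protein that blocks IGF action until it is cut by the protease PAPP-A, was read by 6 probe sets, and their differences ran from -0.15 to 0.10. On the brightest, 1437405_a_at, controls read 10.8, 10.5 and 10.3 and ZnR mice 10.5, 10.4 and 10.5. Control mouse 1 was the highest and control mouse 9 the lowest, so the ZnR mice lay inside the control range. Of the 6 probe sets, 3 had a higher mean and 3 a lower mean in ZnR mice, and all 6 overlapped. The 2 whose names end in _x_at, a mark for probes that can bind other transcripts, were both lower on average.

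**Figure D3:**
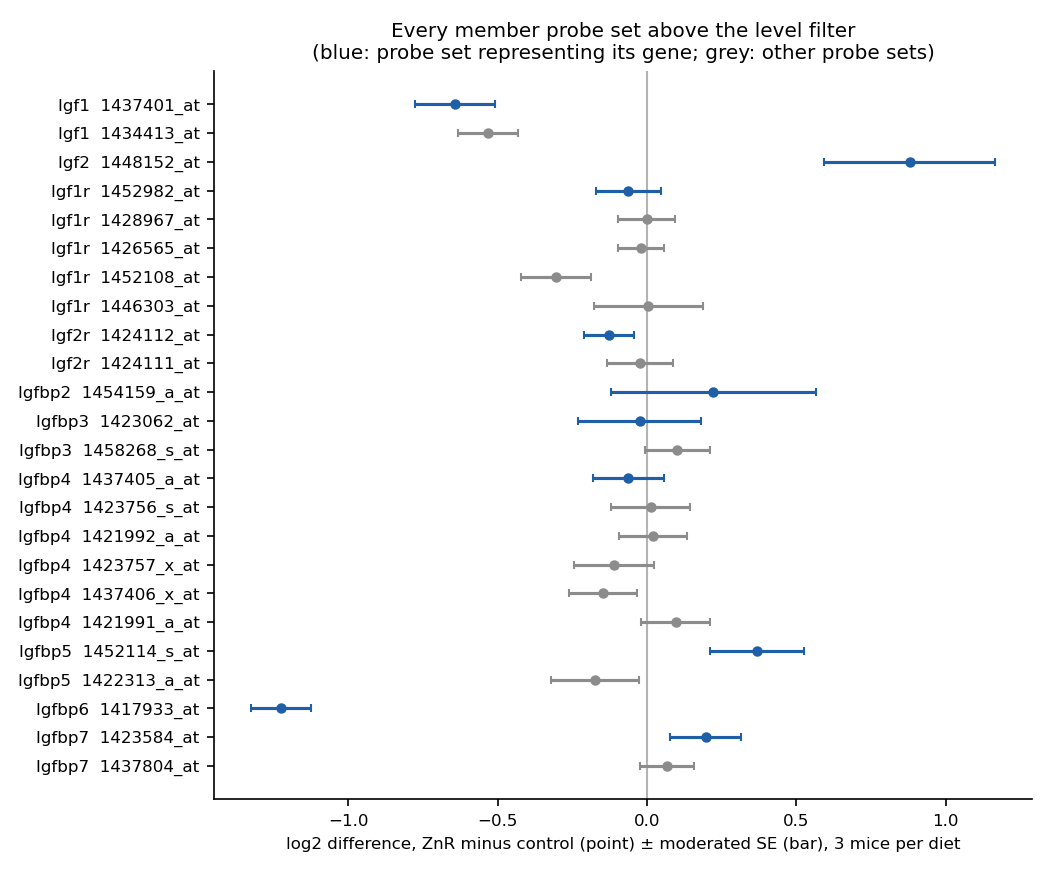
Log2 difference between diets, ZnR minus control (x axis), for the 24 member probe sets above the level filter (y axis). Points are differences of means over 3 mice per diet, bars are moderated standard errors, blue marks the probe set that represents the gene. Both Igf1 probe sets lie at -0.64 and -0.53, Igfbp6 at -1.22, and the 2 Igfbp5 probe sets on either side of 0.

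**Figure D4:**
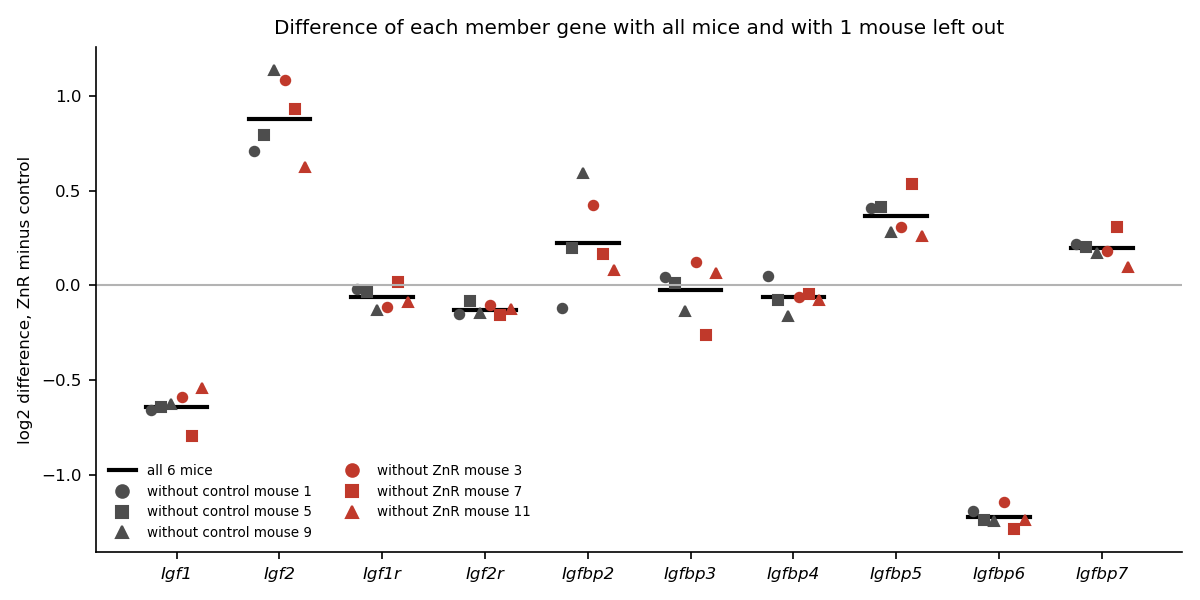
Log2 difference between diets, ZnR minus control (y axis), for each IGF system gene (x axis) with all mice (black bar) and with 1 mouse left out (points, by mouse). Igfbp6 stays between -1.29 and -1.14 and Igf1 between -0.79 and -0.54, while Igfbp2, Igfbp3, Igfbp4 and Igf1r cross 0.

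The sign of the difference was kept with each of the 6 mice left out for Igf1, Igf2, Igf2r, Igfbp5, Igfbp6 and Igfbp7. It changed for Igfbp2 and Igfbp4 without control mouse 1, for Igf1r without ZnR mouse 7, and for Igfbp3 without control mouse 1, control mouse 5, ZnR mouse 3 or ZnR mouse 11. Without ZnR mouse 7 the difference of Igf1 was -0.79 and lay past the threshold.

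The genes whose values over the 6 arrays were most like those of Igfbp6 were Mir22hg, Atrnl1 and the neuropeptide gene Cck, each with a Pearson r of 0.997 among 11739 genes compared. For Igf2 they were Rxylt1 (0.995), Cep57 (0.994) and Zfp1 (0.994), and for Igf1 they were Stxbp5l (0.994), Septin9 (0.994) and Nxph2 (0.991). After each diet was centred on its own mean the closest to Igfbp6 were S100a13 (0.998), Mfsd4a (0.998) and Prrc1 (0.994), to Igf2 Dclre1b (0.999), Atcay (0.998) and Heph (0.998), and to Igf1 Septin9 (0.998), Rbmx2 (0.997) and Stxbp5l (0.995). Septin9 and Stxbp5l, a cytoskeletal and a synaptic gene, were thus among the closest to Igf1 by both measures. These are the highest of many values over 6 arrays that share tissue and diet, and they describe likeness only.

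Around the family, 57 of 76 listed pathway genes were measured, and 1 of them passed the threshold, as higher in ZnR mice. Among all 11749 genes 0.655% were called higher and 1.27% lower, and at an unadjusted limma p under 0.05 11.4% were higher and 7.31% lower. The median difference of the 57 was 0.04, beside 0.03 over all genes. The gene that rose was Dlk1, an imprinted gene for a Notch-related membrane protein, which read 7.75, 7.99 and 8.13 in controls and 8.81, 9.04 and 8.72 in ZnR mice 3, 7 and 11. It was 1.87-fold higher (0.90 ± 0.13 SE, limma adjusted p = 0.0279), and its other probe set rose as well (adjusted p = 0.0431). With any 1 mouse left out it did not pass (adjusted p from 0.0546 to 0.106), at differences of 0.80 to 0.99. Of the 11 imprinted genes of the brain that were measured, the other 10 did not pass, among them Nnat (0.23 ± 0.08) and Peg3 (0.18 ± 0.08).

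No insulin receptor or adaptor gene passed in either direction. Of 10 measured, 7 had higher and 3 lower means in ZnR mice, with a median of 0.12, and 2 were higher at an unadjusted limma p under 0.05. Grb10, an imprinted inhibitor of the insulin and IGF1 receptors, differed by 0.41 ± 0.10 (limma adjusted p = 0.102), while its dimmest probe set differed by -0.12 ± 0.08. The docking protein gene Gab1 differed by 0.61 ± 0.18 (adjusted p = 0.141), and Grb14 by 0.20 ± 0.12 (adjusted p = 0.472). A dimmer probe set of Grb14 differed by -0.47 ± 0.12. It passed the level filter only through the controls (4.02 to 4.29), with the ZnR mice below the floor (3.46 to 3.83). Its separation of the diets follows from the filter, and nothing is read from it. Irs1 and Irs2, the main receptor substrates, differed by -0.04 ± 0.10 and 0.10 ± 0.12.

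The PI3K, AKT and mTOR branch held 24 measured genes, none past the threshold. Of them 11 had higher and 13 lower means, with a median of -0.01, and 2 were higher at an unadjusted limma p under 0.05. Foxo1, a transcription factor that AKT keeps out of the nucleus, differed by 0.45 ± 0.11 (limma adjusted p = 0.106), and a less bright probe set of it was past the threshold and 1.73-fold higher (adjusted p = 0.0292). The kinase gene Akt1 differed by 0.33 ± 0.10 (adjusted p = 0.145), its other probe set above the filter by less, and Foxo4 by 0.24 ± 0.10 (adjusted p = 0.304). Mtor itself differed by -0.04 ± 0.09.

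Carriers, proteases and clearance genes numbered 8 measured of 15 listed, and none passed (1 higher and 1 lower at an unadjusted limma p under 0.05). The serine protease gene Prss23 was lower in all ZnR mice at 6.89, 7.42 and 7.43 against 7.88, 8.15 and 8.46 in controls, a difference of -0.92 ± 0.20 (limma adjusted p = 0.0684). Its second probe set was just past the threshold (adjusted p = 0.0499). Igfbpl1, a binding protein relative known from young neurons, differed by 0.55 ± 0.17 (adjusted p = 0.155), and its dimmer probe set was past the threshold (adjusted p = 0.0488). Young neuron markers, a list that holds Igfbpl1, had a mean over 6 genes of 7.92 to 8.40 in controls and 8.62 to 8.75 in ZnR mice, with Sox11 the brightest, and the part of such cells was not tested. Htra1, a secreted protease that cuts IGFBPs, differed by 0.18 ± 0.09 (adjusted p = 0.351). Pappa, Pappa2, Stc2, Igfals and Igfbp1 were among the 7 genes not above the filter.

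Of 9 genes listed for growth hormone input and IGF2 mRNA binding, 4 were measured, all of growth hormone input, and none passed the threshold. The growth hormone receptor gene Ghr read 6.663, 7.381 and 7.004 in controls and 7.68, 7.67 and 7.68 in ZnR mice, a difference of 0.66 ± 0.17 (limma adjusted p = 0.108). The ZnR mice were all above the controls and nearly equal. Stat5b, which carries the signal of that receptor, differed by 0.31 ± 0.11 (adjusted p = 0.214), and Socs2, an inhibitor of the same signal, by -0.44 ± 0.16 (adjusted p = 0.214). At an unadjusted limma p under 0.05 there were 2 higher and 1 lower. The IGF2 mRNA binding protein genes Igf2bp1 and Igf2bp3 were not above the filter, and Igf2bp2 had no single-gene probe set. IGF2 mRNA binding was therefore not read here.

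**Figure D5:**
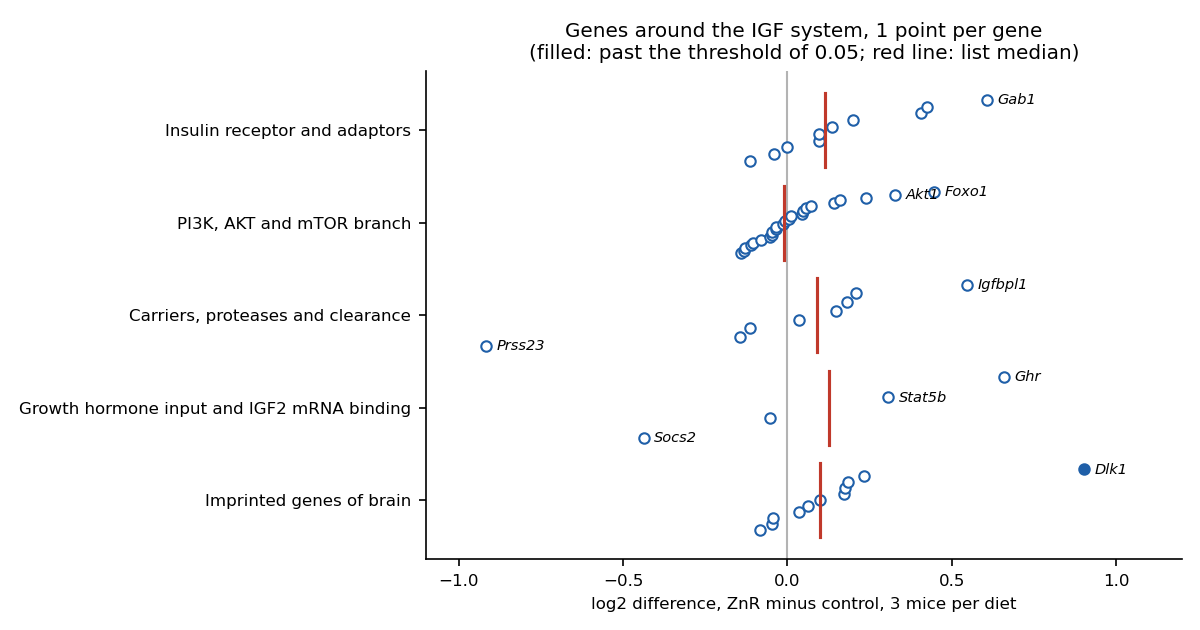
Log2 difference between diets, ZnR minus control (x axis), for 57 genes around the IGF system in 5 lists (y axis; height within a list only spreads the points). Filled points passed the threshold of 0.05, open points did not, and red lines are list medians. Dlk1 is the filled point at 0.90, and medians lie between -0.01 and 0.13.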

How the data were processed

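Total RNA (500 ng per mouse) was labelled and read on 6 arrays, 3 per diet. The values are log2 expression per probe set as the authors deposited them; R 2.15.1 and GCRMA 2.28.0 are named per the submitters' processing notes. GCRMA corrects background by probe sequence and makes arrays alike in distribution, so total RNA content is not seen and low values are compressed. The number of arrays limits precision.

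Of 45101 probe sets, 64 array controls were left out, and 25381 with a log2 value above 4 on at least 3 arrays were kept. Diets were compared in limma 3.58.1 (R 4.3.3; lmFit, eBayes, 2-sided, Benjamini-Hochberg over all 25381, threshold 0.05), without covariates. The method was tested on simulated data. Symbols came from the platform annotation (34945 single-gene probe sets), pathway and marker genes by their brightest kept probe set.

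The members and all lists were chosen with earlier results of these data known. Named genes were all members, and of the pathway genes those past the threshold or with the 3 smallest p per list. The brightest marker per list and the genes most like 3 members were named too. Irs1, Irs2, Mtor, Vip, Slc32a1, Gad2, Lhx6, Npy, Pvalb and Ttr were named after their values were seen. Protein sequences were not used here. Alternatives covered the filter, normalization, variance prior, array weights, the low-18S pair, each mouse and the probe set used. Of 4 erythroid markers listed, 2 had a single-gene probe set and neither passed the filter, so this list was not measured. The lists of mural cells, astrocytes and oligodendrocytes were also measured, with mean differences of 0.25, 0.26 and 0.35 and brightest markers Rgs5, Slc1a2 and Mbp. For interneurons, striatal and young neurons the mean differences were -0.11, 0.52 and 0.47 (brightest Gad1, Penk and Sox11), and for ependyma 1.03 (Rarres2).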

Additional observations from a re-analysis of the deposited data

How the results depend on the processing

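Without any change 373 probe sets passed the threshold. The count was 904 with trend and robust moderation and 2003 with array weights, and from 1 to 109 with 1 mouse left out. Without the low-18S pair, added after the data were seen, it was 1. Of the member probe sets, 1 passed, against 2 with a mean above 5, with trend and robust moderation or with the pair as a block (Igf1 and Igfbp6 each time), 5 with array weights (Igf1, Igf1r, Igf2 and Igfbp6), 0 without the pair (4 at an unadjusted limma p under 0.05) and 0 to 2 with 1 mouse left out (0 without control mouse 5, where 3 had an unadjusted p under 0.05). By gene the member count of 1 became 2 with trend and robust moderation, 3 with array weights, 0 without the pair (3 at an unadjusted p under 0.05) and 0 to 2 with 1 mouse left out (2 at an unadjusted p under 0.05 without control mouse 5). Of the pathway genes 1 passed, against 5 with trend and robust moderation, 5 with array weights, 2 with the pair as a block, 4 on the mean of all probe sets of a gene, and 0 without the pair (9 at an unadjusted p under 0.05) or with any 1 mouse left out (8 to 12). Without the filter and after renewed quantile normalization all 4 counts stayed within 1.5 times. The cause of these shifts was not tested. The fits that leave mice out also hold fewer arrays, and the part of that was not tested either. Over 14 alternatives Igf1, Igf2, Igf2r, Igfbp5, Igfbp6 and Igfbp7 kept their direction. Igf1r and Igfbp2 changed direction in 1, Igfbp4 in 2 and Igfbp3 in 6. Igfbp6 was past the threshold in 12, Igf1 in 4 and Igf2 in 1. Only the mean of all probe sets of a gene looked beyond the representative probe set. There Igf1 and Igfbp6 were past the threshold. Igfbp5 fell there from 0.37 to 0.097, and its dimmer probe set alone went the other way. No paired analysis was possible because the mouse numbers of the diets share none. Signal near the floor limits Igf1, dim Igf1r probe sets and choroid plexus markers.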

Other observations

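Probe sets for transcripts beside the family stayed near the floor. The antisense transcript Igf2os read 2.74 to 2.86 and Igf1os read 2.504 to 2.987 over the 6 mice, and a probe set shared by Igf2r and the imprinted antisense transcript Airn read 3.07 to 3.33. None was above a log2 value of 4 on any array, and the labels do not state how strand was handled.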
